A study of Homo sapiens with 6 samples.

Results

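Axon guidance genes of the semaphorin, ephrin, netrin and SLIT systems were followed in the established human pancreatic cancer cell line L3.6pl after sorting on the surface level of L1CAM, itself an adhesion molecule known from axon guidance. The members were the rows of the count table whose gene symbol named a semaphorin, plexin, neuropilin, ephrin, Eph receptor, SLIT, ROBO, netrin, UNC5 receptor, neogenin (NEO1) or RGMB, which gave 53 of the 19469 genes. Of the 70 genes with such a symbol in the GENCODE annotation, the other 17 were not analysed here. The 2 groups were the L1CAM_POSITIVE population (L1high, n = 3 libraries) and the L1CAM_NEGATIVE population (L1low, n = 3 libraries) of untreated cells grown in DMEM with serum. Both came from the same line, whose name the titles give as L3_6PL and a characteristics field as L6.6pl. The study states in general terms that its experiments were repeated independently and in triplicate samples, but not whether the 3 libraries of a group came from separate cultures or sorts, so the tests measure the spread between these libraries, which may be technical.

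Each library held between 16334610 and 21064685 counted reads. Values are given as CPM, a gene's share of its library's reads scaled to a common total with TMM factors, for 1 gene between libraries, and as TPM, counts per kilobase of transcript scaled to the same total in each library, where different genes are compared. The study's own comparison leaves out L1high replicate 3, so a gene was called when its adjusted p was under 0.05 over the other 5 libraries, and the fit over all 6 is given beside it. Fits without L1high replicate 1 or 2 had L1high replicate 3 in its place. Those without an L1low replicate kept L1high replicates 1 and 2 alone. Log2 fold changes are L1low against L1high. L1CAM checked the labels, at 84.0, 69.8 and 89.5 CPM in L1high replicates 1, 2 and 3 and at 17.7, 23.7 and 20.0 CPM in L1low replicates 1, 2 and 3. The ranges did not overlap, and L1CAM had a log2 fold change of -1.90 over the 5 libraries (edgeR adjusted p = 3.7e-06).

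Guidance proteins steer growing axons and migrating cells by attraction or repulsion, and epithelial and tumor cells use many of the same ligands and receptors for adhesion, motility and contact with nerves. Semaphorins signal through plexins, and most secreted class 3 semaphorins need a neuropilin as the binding co-receptor. Ephrins are anchored in the membrane and bind Eph receptor tyrosine kinases on neighboring cells, with signals running in both directions. SLITs bind ROBO receptors, and netrins bind DCC, neogenin and UNC5 receptors.

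More guidance genes were higher than lower in L1low cells. Of the 53 members, 17 were called over the 5 libraries (32.1%), where 7.57% of all genes were called. Of these, 15 were higher in L1low cells (28.3% of members, against 4.41% of all genes) and 2 were lower (3.77% of members, against 3.15% of all genes). The 15 higher were SEMA3C, SEMA3F, SEMA4B, SEMA6A, NRP1, NRP2, PLXNA1, PLXNA2, PLXNB1, PLXNB2, EFNB1, EPHA2, EPHA5, EPHB2 and EPHB3, and the 2 lower were SEMA6B and PLXND1. The changes were modest, and SEMA3C and EPHA5 were the called members whose fold exceeded 2. The median log2 fold change was 0.25 over the members and 0.0016 over all genes, and 41 members lay above 0, where 50.3% of all genes did. The paper already lists axon guidance among the pathways enriched in its own comparison of these populations, so these shares are not independent of that result. Fewer cells that express a gene and less RNA of it per cell cannot be told apart in these sorted populations.

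Over all 6 libraries, 18 members were called (34.0%), where 7.95% of all genes were, namely the same 17 and EFNB3. The 16 higher stand beside 4.58% of all genes and the 2 lower beside 3.37%. Without adjustment, 29 members over the 5 libraries and 28 over all 6 had p under 0.05, where 23.3% of all genes did in each fit. In 29 members (54.7%, against 28.8% of all genes) the CPM ranges of the groups were apart, 3 libraries against 3, and of these 24 were higher in L1low cells (15.2% of all genes) and 5 lower (13.7% of all genes). The deposited table holds only genes above 1 CPM in at least 2 libraries. EPHA5 and SEMA5A met that limit through L1low libraries alone and NTN1 through L1high libraries alone, so genes at this level could enter the table because they differed. Of the 50 members above 1 CPM in both groups, 16 were called over the 5 libraries (32.0%, where 7.57% of all genes were). The members with a mean under 2 CPM were EPHA3, EPHA4, EPHA5, NTN1, NTN5, SEMA5A, SEMA6D and SEMA7A, of which EPHA5 was called.

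**Figure D1:**
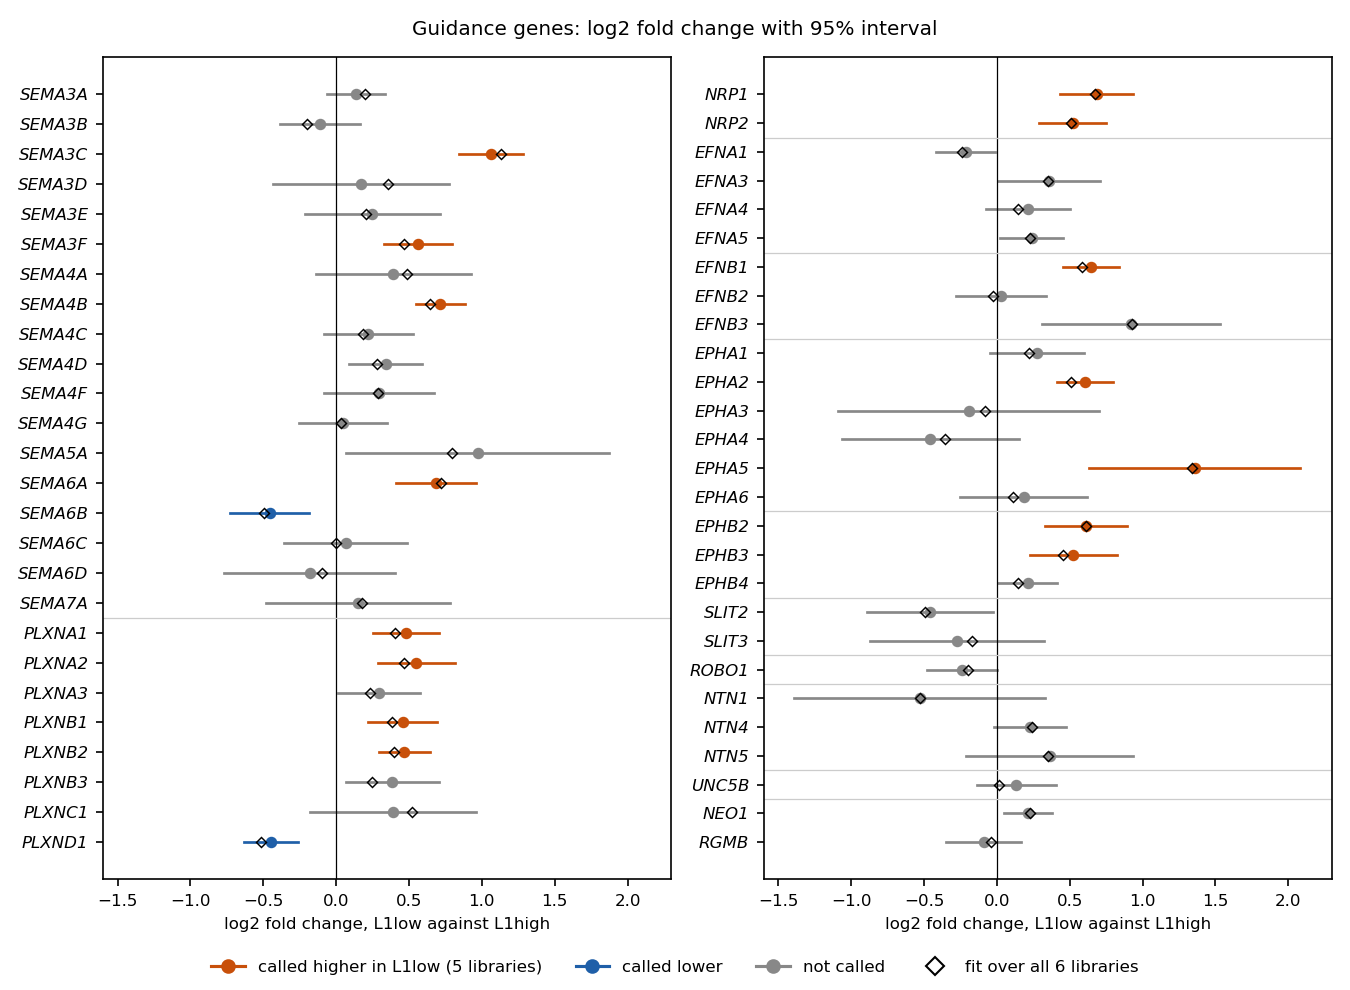
Log2 fold change of each of the 53 guidance genes in L1low against L1high cells (horizontal axis), by family, with the 95% interval of the 5-library edgeR fit as a bar and the 6-library estimate as an open diamond. The 15 members called higher lie to the right of 0 and PLXND1 and SEMA6B to the left, while the widest intervals belong to genes with few reads such as SEMA5A and EPHA5.

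Among the secreted class 3 semaphorins, SEMA3C rose most. SEMA3C (chromosome 7, 80742538 to 80922359, minus strand, GRCh38), a ligand that binds neuropilins and signals through plexins including plexin-D1, stood at 20.0, 22.1 and 17.7 CPM in L1high replicates 1, 2 and 3 and at 44.5, 44.5 and 42.2 CPM in L1low replicates 1, 2 and 3. The L1low libraries all lay far above the highest L1high library. The difference corresponded to 2.09-fold (log2 fold change 1.06, standard error 0.10, edgeR adjusted p = 3.8e-05), and over all 6 libraries the log2 fold change was 1.13 (edgeR adjusted p = 3e-05). SEMA3F (chromosome 3, 50155045 to 50189075), which signals mainly through neuropilin-2, stood at 19.9, 18.5 and 22.8 CPM in L1high replicates 1, 2 and 3 and at 29.1, 29.0 and 26.5 CPM in L1low replicates 1, 2 and 3. The groups were again apart, with a smaller step (log2 fold change 0.56, standard error 0.11, edgeR adjusted p = 0.0075), and SEMA3F was not called without L1low replicate 2 or without L1high replicate 1.

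The class 3 ligand with the highest level per length in L1high cells did not pass the test. SEMA3A, the classical repellent of sensory axons that binds neuropilin-1, stood at 63.8, 70.2 and 57.6 CPM in L1high replicates 1, 2 and 3 and at 77.3, 75.0 and 67.3 CPM in L1low replicates 1, 2 and 3. The ranges overlapped, since L1low replicate 3 lay under L1high replicate 2, and the 95% interval of its log2 fold change ran from -0.06 to 0.34. SEMA3B and the low SEMA3D and SEMA3E were not called either, with log2 fold changes of -0.11, 0.17 and 0.25. SEMA3E is the ligand of plexin-D1 that needs no neuropilin, and its counts per library were 47 to 59. Of the 6 class 3 semaphorins, 2 were thus called (33.3%, where 7.57% of all genes were).

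SEMA4B, a membrane-bound class 4 semaphorin, was the most abundant guidance gene of these cells per length. SEMA4B (chromosome 15, 90160604 to 90229679) stood at 382, 337 and 405 CPM in L1high replicates 1, 2 and 3 and at 571, 595 and 593 CPM in L1low replicates 1, 2 and 3. All L1low libraries lay above all L1high libraries, by 1.64-fold (log2 fold change 0.71, standard error 0.08, edgeR adjusted p = 0.00011). The other 5 class 4 semaphorins were not called and had log2 fold changes from 0.05 for SEMA4G to 0.39 for SEMA4A. SEMA4D, the ligand of plexin-B1, stood at 15.6, 16.1 and 17.7 CPM in L1high replicates 1, 2 and 3 and at 18.2, 20.8 and 20.8 CPM in L1low replicates 1, 2 and 3. Its libraries did not overlap between groups, but its log2 fold change of 0.34 missed the threshold (edgeR adjusted p = 0.1). SEMA4C, a ligand of plexin-B2, had a log2 fold change of 0.22 with a 95% interval of -0.08 to 0.52.

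The class 6 transmembrane semaphorins moved in both directions. SEMA6A (chromosome 5, 116443555 to 116574823), a ligand of plexin-A2 and plexin-A4, stood at 9.38, 9.20 and 8.47 CPM in L1high replicates 1, 2 and 3 and at 14.5, 15.4 and 14.6 CPM in L1low replicates 1, 2 and 3, without overlap (log2 fold change 0.69, standard error 0.13, edgeR adjusted p = 0.0053). SEMA6B (chromosome 19, 4542593 to 4581776) stood at 21.7, 19.7 and 22.2 CPM in L1high replicates 1, 2 and 3 and at 13.4, 16.8 and 14.9 CPM in L1low replicates 1, 2 and 3. Each L1low library was below each L1high library for SEMA6B, the reverse of SEMA6A (log2 fold change -0.46, standard error 0.13, edgeR adjusted p = 0.044). The fall of SEMA6B was not called without L1high replicate 1, L1low replicate 1 or L1low replicate 2. SEMA6C and SEMA6D were not called, nor was SEMA7A, the semaphorin anchored by a lipid. SEMA5A rested on 9 to 27 reads per library and was not called (0.97, 95% interval 0.07 to 1.87, edgeR adjusted p = 0.18). Its log2 fold change was 0.79 over all 6 libraries and 0.55 when L1high replicate 2 was left out of these.

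Both neuropilins rose in L1low cells. NRP1 (chromosome 10, 33177492 to 33336262), the binding co-receptor for SEMA3A and for VEGF, which L1CAM is known to join in a receptor complex in neurons, stood at 13.8, 13.5 and 13.7 CPM in L1high replicates 1, 2 and 3 and at 22.8, 22.4 and 20.3 CPM in L1low replicates 1, 2 and 3. The L1high values lay within a narrow band well below all L1low values. NRP1 thus changed by 1.61-fold (log2 fold change 0.68, standard error 0.12, edgeR adjusted p = 0.0032). NRP2 (chromosome 2, 205681990 to 205798133), the co-receptor preferred by SEMA3F, stood at 21.6, 22.8 and 22.2 CPM in L1high replicates 1, 2 and 3 and at 33.2, 31.9 and 29.8 CPM in L1low replicates 1, 2 and 3, again without overlap (log2 fold change 0.52, standard error 0.10, edgeR adjusted p = 0.0098). NRP2 lost its call without L1low replicate 2 (edgeR adjusted p = 0.068) and NRP1 kept its call under every alternative tried. A noncoding gene lies on the opposite strand within each of them, ENSG00000238258 in NRP1 and ENSG00000225216 in NRP2, both under 3 CPM in every library.

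Plexins, the signaling receptors of semaphorins, were called in 5 of 8 genes (62.5%, where 7.57% of all genes were), 4 higher and 1 lower. PLXNB2 (chromosome 22, 50274979 to 50307646), the most abundant of them per length, stood at 212, 184 and 225 CPM in L1high replicates 1, 2 and 3 and at 265, 278 and 273 CPM in L1low replicates 1, 2 and 3. Its L1low libraries were all above its L1high libraries (log2 fold change 0.47, standard error 0.08, edgeR adjusted p = 0.0037). PLXNB1, the receptor of SEMA4D that couples to MET and ERBB2, stood at 89.7, 66.9 and 89.8 CPM in L1high replicates 1, 2 and 3 and at 102, 109 and 110.1 CPM in L1low replicates 1, 2 and 3 (log2 fold change 0.46, standard error 0.11, edgeR adjusted p = 0.026). PLXNA1, a partner of the neuropilins, stood at 102, 78.2 and 104 CPM in L1high replicates 1, 2 and 3 and at 125, 129 and 121 CPM in L1low replicates 1, 2 and 3 (log2 fold change 0.48, standard error 0.10, edgeR adjusted p = 0.015). PLXNA2, a receptor for SEMA6A and, with neuropilins, for class 3 semaphorins, stood at 17.1, 13.9 and 18.2 CPM in L1high replicates 1, 2 and 3 and at 21.7, 22.8 and 23.2 CPM in L1low replicates 1, 2 and 3 (log2 fold change 0.55, standard error 0.12, edgeR adjusted p = 0.017). In these 4 genes the groups did not overlap, but the lowest value belonged in each to L1high replicate 2.

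PLXND1 went the other way. PLXND1 (chromosome 3, 129555214 to 129606676), the receptor of SEMA3E and, with neuropilins, of other class 3 semaphorins, stood at 88.2, 80.5 and 94.5 CPM in L1high replicates 1, 2 and 3 and at 60.2, 58.7 and 65.5 CPM in L1low replicates 1, 2 and 3. All L1low libraries lay below all L1high libraries, so that the plexin-D1 transcript fell while SEMA3C and both neuropilins rose (log2 fold change -0.45, standard error 0.09, edgeR adjusted p = 0.0074). Over all 6 libraries the log2 fold change of PLXND1 was -0.51 (edgeR adjusted p = 0.0025), and it was not called without L1low replicate 2. PLXNA3, PLXNB3 and PLXNC1 were not called, with log2 fold changes of 0.29, 0.39 and 0.39.

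The rises of PLXNA1, PLXNA2 and PLXNB1 were smaller without L1high replicate 2, with replicate 3 in its place. The log2 fold change was then 0.28 for PLXNA1, 0.35 for PLXNA2 and 0.25 for PLXNB1. Over all 6 libraries it was 0.40, 0.46 and 0.38. Without replicate 2, PLXNA2 and PLXNB1 were not called (edgeR adjusted p = 0.063 and 0.053). Offsets for GC content and transcript length lowered the 4 plexin rises to between 0.24 and 0.36 with all 4 still called, and took PLXND1 to -0.67. Without L1high replicate 1 or L1low replicate 2, PLXNA1, PLXNA2 and PLXNB1 were not called. PLXNB2 was called under every alternative.

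**Figure D2:**
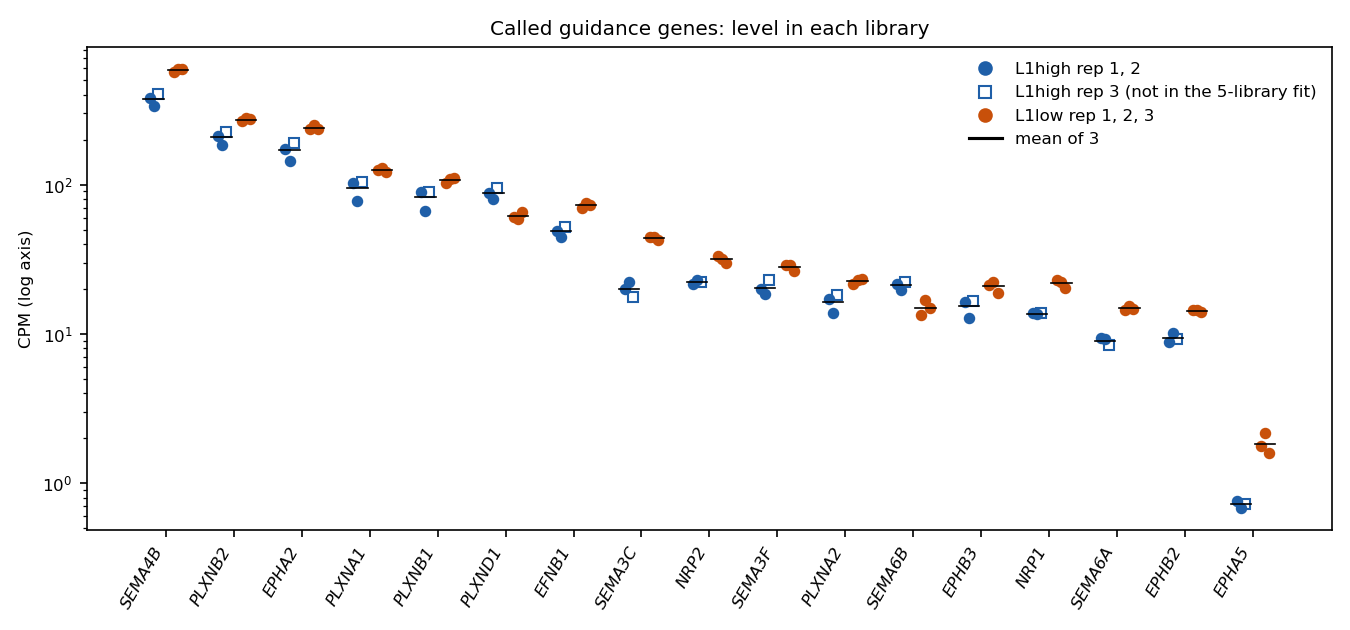
CPM on a log axis of the 17 called guidance genes in each library, with L1high in blue, L1low in orange, the L1high replicate left out of the 5-library fit as open squares, and the mean of 3 libraries as a black line. For every gene shown the 3 L1low points lie on 1 side of the 3 L1high points, below them for PLXND1 and SEMA6B and above them for the other 15.

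Of the ephrin ligands, ephrin-B1 rose. EFNB1 (chromosome X, 68829021 to 68842160), a transmembrane ligand of EphB receptors, stood at 49.2, 44.3 and 52.3 CPM in L1high replicates 1, 2 and 3 and at 69.6, 75.2 and 73.0 CPM in L1low replicates 1, 2 and 3. The lowest L1low library exceeded the highest L1high library (log2 fold change 0.64, standard error 0.09, edgeR adjusted p = 0.00074), and EFNB1 was called under every alternative. EFNB3, a scarce ligand of the same subclass, stood at 2.17, 1.22 and 1.64 CPM in L1high replicates 1, 2 and 3 and at 2.70, 3.45 and 3.44 CPM in L1low replicates 1, 2 and 3, without overlap. EFNB3 was called over all 6 libraries, with a log2 fold change of 0.92 (edgeR adjusted p = 0.039), and missed the threshold over 5 (log2 fold change 0.92, standard error 0.28, edgeR adjusted p = 0.069), on 25 to 62 reads per library. EFNB3 was called without L1high replicate 1 (1.17, edgeR adjusted p = 0.041) but not without L1high replicate 2 (0.73, edgeR adjusted p = 0.11). DESeq2 gave EFNB3 no adjusted p. EFNB2, the third ephrin-B, had a log2 fold change of 0.03 with a 95% interval of -0.28 to 0.34.

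The ephrin-A ligands, which are held in the membrane by a lipid anchor, gave no call in the unblocked edgeR fits over 5 and 6 libraries, nor by DESeq2. With 7.57% of all genes called over 5 libraries, no call among these 4 genes is near that share. EFNA1, EFNA3 and EFNA5 had an unadjusted p under 0.05, where 23.3% of all genes did. EFNA1 (chromosome 1, 155127876 to 155134899), the main ligand of EphA2 and the most abundant ephrin per length, stood at 84.1, 79.9 and 85.2 CPM in L1high replicates 1, 2 and 3 and at 64.7, 67.6 and 78.4 CPM in L1low replicates 1, 2 and 3. All L1low libraries lay below all L1high libraries, but the difference of -0.21 on the log2 scale did not pass the test (95% interval -0.42 to -0.01, edgeR adjusted p = 0.19). EFNA1 was called lower without L1low replicate 3 (-0.30, edgeR adjusted p = 0.041) and with offsets for GC content and length (-0.24, edgeR adjusted p = 0.036). EFNA3, EFNA4 and EFNA5 had log2 fold changes of 0.36, 0.21 and 0.24. EFNA3 and EFNA4 share exons with the read-through gene EFNA4-EFNA3, so their reads may have been split.

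Among Eph receptors, 4 of 9 were called (44.4%, where 7.57% of all genes were) and all 4 were higher in L1low cells. EPHA2 (chromosome 1, 16124337 to 16156069), the dominant Eph receptor here and one often abundant in carcinomas, stood at 174, 144 and 191 CPM in L1high replicates 1, 2 and 3 and at 237, 249.6 and 236 CPM in L1low replicates 1, 2 and 3. Each L1low value was above each L1high value (log2 fold change 0.61, standard error 0.09, edgeR adjusted p = 0.0012). The log2 fold change was 0.51 over all 6 libraries and 0.40 without L1high replicate 2, and EPHA2 was called in both. EPHB2, which binds ephrin-B ligands, stood at 8.77, 10.1 and 9.26 CPM in L1high replicates 1, 2 and 3 and at 14.4, 14.4 and 14.1 CPM in L1low replicates 1, 2 and 3, with tight replicates and no overlap (log2 fold change 0.61, standard error 0.13, edgeR adjusted p = 0.014). EPHB3, an ephrin-B receptor known from the intestinal crypt, stood at 16.5, 12.8 and 16.7 CPM in L1high replicates 1, 2 and 3 and at 21.4, 22.3 and 18.9 CPM in L1low replicates 1, 2 and 3 (log2 fold change 0.52, standard error 0.14, edgeR adjusted p = 0.036).

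The calls of EPHB2 and EPHB3 were less stable than that of EPHA2. EPHB2 was not called without L1low replicate 2 (edgeR adjusted p = 0.071) or with GC and length offsets, which lowered its log2 fold change to 0.40. EPHB3 was not called without L1high replicate 1, L1high replicate 2 (0.33), L1low replicate 1 or L1low replicate 2, nor with those offsets. EPHB4, the most abundant EphB receptor, stood at 94.5, 79.8 and 97.8 CPM in L1high replicates 1, 2 and 3 and at 101, 105 and 94.4 CPM in L1low replicates 1, 2 and 3. L1low replicate 3 lay among the L1high values, and EPHB4 was not called (0.21, 95% interval 0.01 to 0.41, edgeR adjusted p = 0.2). On the log2 scale EPHB4 differed by 0.14 over all 6 libraries, by 0.06 when L1high replicate 2 was left out of these, and by 0.04 under the GC and length offsets.

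EPHA5 had the largest fold of the called members on the fewest reads. EPHA5 (chromosome 4, 65319563 to 65670495), an Eph receptor best known from the nervous system, had counts of 16, 14 and 12 in L1high replicates 1, 2 and 3 and of 32, 39 and 28 in L1low replicates 1, 2 and 3. The groups did not overlap (log2 fold change 1.36, standard error 0.33, edgeR adjusted p = 0.028), and the 95% interval of 0.63 to 2.08 was wide. EPHA5 was not called without L1high replicate 1 or L1low replicate 2, DESeq2 gave it no adjusted p, and it entered the deposited table through its L1low libraries. The ribosomal pseudogene RPL6P10 lies on the opposite strand within EPHA5 and overlapped between groups, at 238, 257 and 254 CPM in L1high replicates 1, 2 and 3 and at 232, 239 and 284 CPM in L1low replicates 1, 2 and 3. EPHA1, EPHA3, EPHA4 and EPHA6 were not called, with log2 fold changes from -0.46 for EPHA4 to 0.27 for EPHA1.

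SLIT, ROBO, netrin and UNC5 genes gave 0 calls among 7 genes by edgeR over 5 or 6 libraries. With 7.57% of all genes called over 5 libraries, 0 of 7 is near that share and is not a result about these families. DESeq2 also gave 0 calls and left 3 of the 7 without an adjusted p. In each edgeR fit 2 of the 7 had an unadjusted p under 0.05, where 23.3% of all genes did. ROBO1 (chromosome 3, 78597239 to 79767998), the 1 SLIT receptor analysed, stood at 20.2, 21.6 and 18.7 CPM in L1high replicates 1, 2 and 3 and at 18.2, 16.7 and 17.8 CPM in L1low replicates 1, 2 and 3. SLIT2 (chromosome 4, 20251905 to 20620561), its secreted ligand, stood at 5.75, 5.11 and 5.73 CPM in L1high replicates 1, 2 and 3 and at 3.47, 3.51 and 4.80 CPM in L1low replicates 1, 2 and 3. Both were lower in every L1low than in every L1high library, but neither passed the test, with log2 fold changes of -0.24 (edgeR adjusted p = 0.21) and -0.46 (edgeR adjusted p = 0.19). SLIT3 had a log2 fold change of -0.27 on 30 to 62 reads per library.

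NTN4, a netrin found in basement membranes, was the main netrin and stood at 23.4, 21.4 and 21.3 CPM in L1high replicates 1, 2 and 3 and at 27.4, 27.2 and 23.5 CPM in L1low replicates 1, 2 and 3. Its groups did not overlap by a narrow margin, and the test did not call it (0.23, 95% interval -0.02 to 0.47). NEO1, the neogenin receptor of netrins and RGM proteins, stood at 100.1, 102 and 96.4 CPM in L1high replicates 1, 2 and 3 and at 115, 114 and 120.3 CPM in L1low replicates 1, 2 and 3, higher in every L1low library. Its log2 fold change was 0.21 (edgeR adjusted p = 0.11) over 5 libraries and 0.23 (edgeR adjusted p = 0.057) over all 6, both without a replicate block, and 0.12 with offsets for GC content and length. UNC5B, a netrin receptor, had means of 25.2 ± 4.32 CPM in L1high and 25.4 ± 1.94 CPM in L1low cells (SD, n = 3) with overlapping libraries, with a log2 fold change of 0.13, and the BMP co-receptor RGMB had one of -0.09. NTN1 and NTN5 were near the detection limit of the table, at under 3 CPM in every library.

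Compared per length, a few genes carried most of each family. In L1high cells SEMA4B made up 67.2% of the summed TPM of the 18 semaphorins, and in L1low cells 73.0%, as the means of 3 libraries. The summed semaphorin level was 227 ± 18.02 TPM in L1high and 328 ± 13.0 TPM in L1low cells (SD, n = 3), without overlap between libraries. EPHA2 held 92.8% of the EphA level in L1high and 94.2% in L1low cells, and EFNB1 87.5% and 89.6% of the ephrin-B level. EFNA1 went from 70.5% to 63.3% of the ephrin-A level. The summed plexin level was 113 ± 14.0 TPM in L1high and 136 ± 4.08 TPM in L1low cells, of which PLXNB2 held 44.2% and 48.4%.

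The order of receptors and ligands per length also shifted in places. SEMA3C stood at 6.30 TPM in L1high cells, below SEMA3A at 12.1 TPM, and at 13.9 TPM in L1low cells, beside SEMA3A at 14.0 TPM. PLXND1 was second among plexins in L1high cells at 19.6 TPM and behind 3 others in L1low cells at 13.7 TPM, namely PLXNB2, PLXNB1 and PLXNA1. EPHA2 and its ligand EFNA1 stood at 66.3 and 82.4 TPM in L1high cells and at 94.4 and 69.8 TPM in L1low cells, so that the receptor went from below to above the ligand. These shares and orders depend on the annotated transcript length and were not tested.

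**Figure D3:**
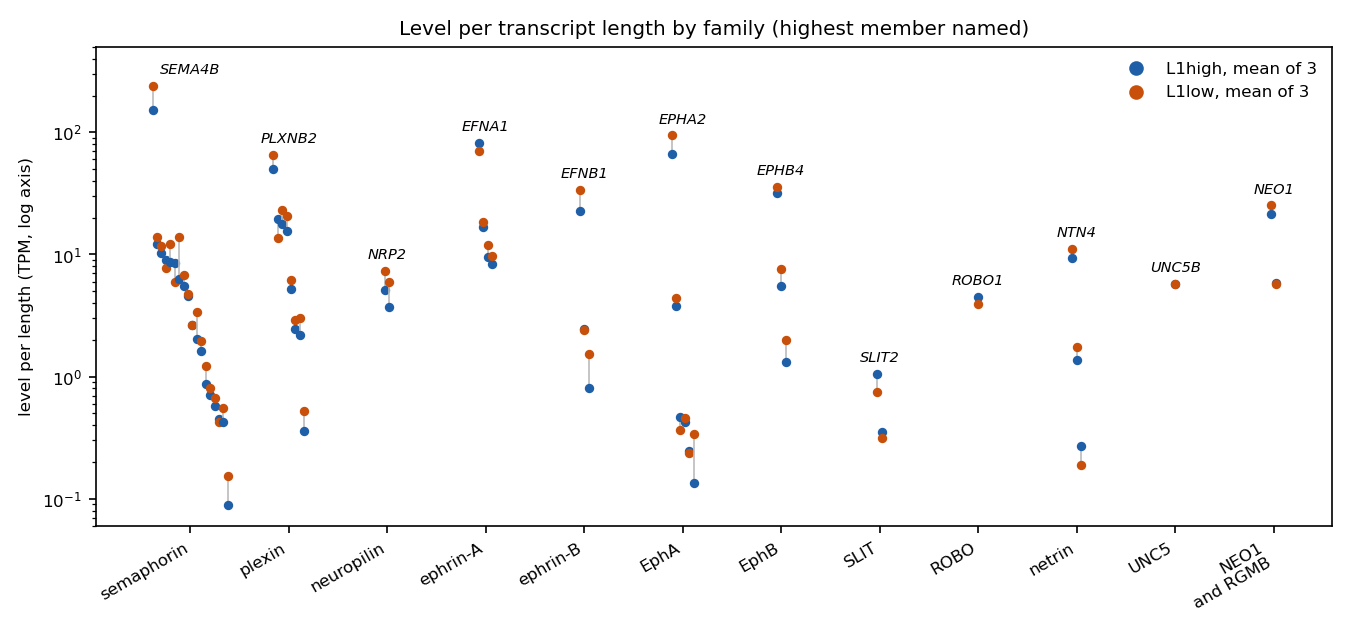
Level per transcript length (TPM, log axis) of each guidance gene by family, with the L1high mean of 3 libraries in blue, the L1low mean in orange and a line joining the points of a gene; the highest member of each family is named. SEMA4B, EFNA1, EPHA2 and PLXNB2 lead the plot, and most orange points lie above their blue partner, with EFNA1, PLXND1, SLIT2 and ROBO1 among the exceptions.

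L1high replicate 2 stood apart from the other L1high libraries in these families. It was the lowest of the 3 L1high libraries in 30 of the 53 members (56.6%) and in 7 of 8 plexins, where it was the lowest in 39.5% of all genes. It was also the lowest in 11 of the 15 members called higher, but it is 1 of the 2 L1high libraries of the fit that made those calls, so this count has no independent comparison. Replicate 3, which the 5-library fit leaves out, was the highest L1high library in 24 of the 53 members and in 7144 of all 19469 genes. Without L1high replicate 1 (with replicate 3 in its place) 11 members were called, without L1low replicate 2 the number was 7, and these 2 fits also lowered the calls over all genes to 674 and 551. The 7 members called under every alternative, a selection that includes the fits with 1 library left out, were EFNB1, EPHA2, NRP1, PLXNB2, SEMA3C, SEMA4B and SEMA6A. How many of all genes were called under every alternative was not counted, so this number has no background share.

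**Figure D4:**
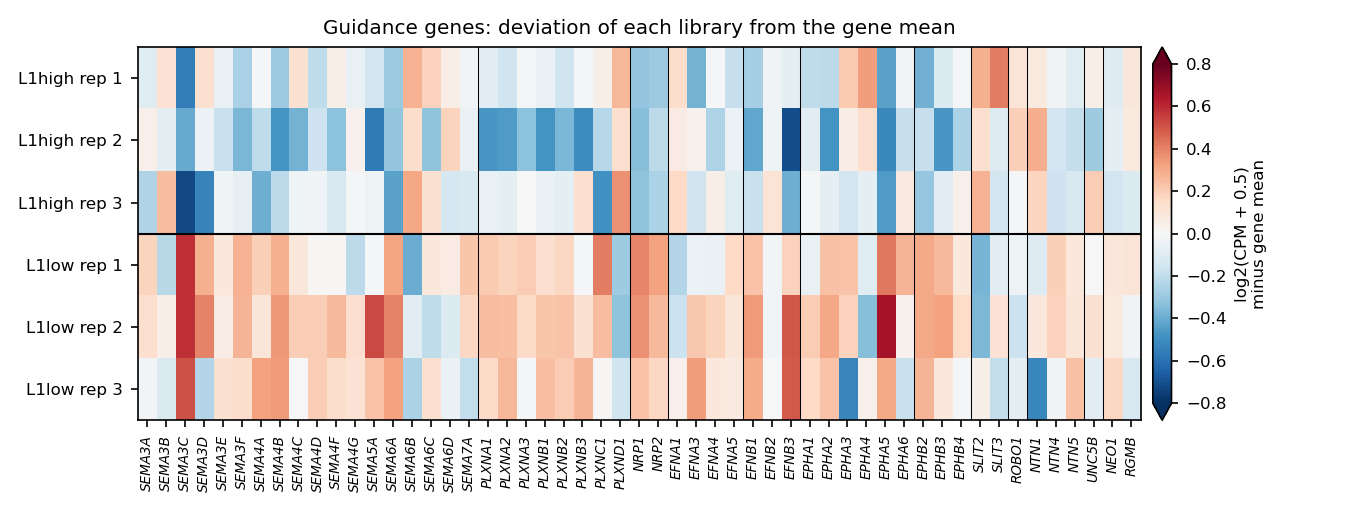
Deviation of each library (rows) from the gene's mean over the 6 libraries, as log2(CPM + 0.5), for the 53 guidance genes (columns, in family order), with red above and blue below the mean. SEMA3C, NRP1, NRP2 and EFNB1 are blue in all 3 L1high rows and red in all 3 L1low rows, PLXND1 shows the reverse, and the plexin-A and plexin-B genes are bluest in L1high replicate 2.

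Other partners of the guidance receptors were read from a list of 26 co-receptors and ligands, of which 21 were in the table. In L1low cells 5 were called higher and 1 lower (28.6% called, where 7.57% of all genes were). The 1 that fell was the sorting marker L1CAM, whose call follows from the sort and is counted in the 28.6%. The 5 higher stand beside 4.41% of all genes. Without L1high replicate 1, 3 of the 21 were called, and without L1low replicate 2 also 3. In these fits the calls over all genes fell too, from 1473 to 674 and 551. MET, the HGF receptor that associates with plexin-B1, stood at 43.5, 45.8 and 44.5 CPM in L1high replicates 1, 2 and 3 and at 67.2, 69.2 and 63.8 CPM in L1low replicates 1, 2 and 3 (log2 fold change 0.59, standard error 0.09, edgeR adjusted p = 0.0013). ERBB2, another plexin-B partner, had a log2 fold change of 0.38 over 5 libraries (edgeR adjusted p = 0.027) and was not called over 6 (0.29, edgeR adjusted p = 0.078). VEGFA and VEGFC, ligands of neuropilins, were not called (0.15 and -0.27), nor were the SLIT-binding proteoglycan GPC1 (0.23), RGMA (0.28), FLRT2, FLRT3, NTNG1 or NTNG2.

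Of 60 cytoplasmic effectors of guidance receptors, 56 were in the table and 9 were called (16.1%, where 7.57% of all genes were). Of the 9, 6 were higher and 3 lower in L1low cells. Without L1high replicate 1 the number called was 4, and without L1low replicate 2 it was also 4. The calls over all genes were 674 and 551 in these fits, against 1473 over the 5 libraries. DPYSL4, a collapsin response mediator of the family that acts below semaphorins, had the largest rise (log2 fold change 0.82, standard error 0.20, edgeR adjusted p = 0.028). LIMK2, a kinase that phosphorylates cofilin, rose too (log2 fold change 0.68, standard error 0.09, edgeR adjusted p = 0.00044). FYN, a SRC-family kinase used by plexin-A and netrin receptors and also an L1CAM partner, stood at 17.9, 20.3 and 20.8 CPM in L1high replicates 1, 2 and 3 and at 7.21, 8.47 and 9.15 CPM in L1low replicates 1, 2 and 3, without overlap (log2 fold change -1.20, standard error 0.14, edgeR adjusted p = 0.00018). PAK3 had the largest fall (-2.63), but its values were 4.05, 50.4 and 3.41 CPM in L1high replicates 1, 2 and 3 and at 4.24, 4.90 and 3.90 CPM in L1low replicates 1, 2 and 3, so the fall rested on L1high replicate 2, and over all 6 libraries it was not called (edgeR adjusted p = 0.14). Over all 6 libraries 7 effectors were called higher and 1 lower, where 4.58% and 3.37% of all genes were.

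All 10 epithelial markers were in the table, with EPCAM at 237 ± 26.9 CPM in L1high and 193 ± 6.99 CPM in L1low cells (SD, n = 3). EPCAM and CLDN7 fell, with log2 fold changes of -0.37 and -0.32, and KRT19 and ELF3 rose, by 0.69 and 0.45. Of 10 fibroblast markers, COL1A2, DCN, PDGFRA, PDGFRB, THY1, FAP and POSTN were not among the genes of the table, and of the other 3 LUM rose (0.74), with the summed level at 86.7 to 98.5 CPM in L1high and 140.2 to 160.2 CPM in L1low libraries. Of 14 neuronal and Schwann cell markers 3 were in the table, and NEFL was called lower (-0.40). TUBB3 and GAP43 were not called, and the median log2 fold change of the 3 was 0.05. The summed level was 120.5 to 127 CPM in L1high and 103 to 112 CPM in L1low libraries. SOX10, S100B and STMN2 were not among the genes of the table. Endothelial and immune markers were represented by 1 gene each, neither of them called. Of 10 genes induced by dissociation and sorting, FOS, FOSB, EGR1, ATF3 and IER2 were called higher in L1low cells (5 of 10, 0 lower, where 7.57% of all genes were called). The summed level of the 10 was 8268 to 8890 CPM in L1high and 10188 to 10923 CPM in L1low libraries. The part of these shifts in the guidance results was not tested.

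Promoter sequences are shown for 4 called members. EPHA5 and PLXND1 were the largest rise and the fall that had an entry in the RefSeq promoter table. SEMA3C, the called member with the smallest adjusted p, and EPHA2, for which no rule was set, were added to these. Each is the 250 bases before the RefSeq start on GRCh38.p14, 5′ to 3′ on the gene's own minus strand, at chr4:65670490-65670739, chr3:129606677-129606926, chr7:80922390-80922639 and chr1:16156070-16156319. Capitals mark a match to TGANTCA (AP-1), CAGACA (SMAD) or GGAATG (TEAD) on either strand.
EPHA5: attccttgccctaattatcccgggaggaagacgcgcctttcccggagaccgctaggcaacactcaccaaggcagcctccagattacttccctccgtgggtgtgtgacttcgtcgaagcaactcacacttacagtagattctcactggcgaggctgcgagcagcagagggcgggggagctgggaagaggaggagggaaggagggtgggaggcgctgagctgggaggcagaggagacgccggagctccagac
PLXND1: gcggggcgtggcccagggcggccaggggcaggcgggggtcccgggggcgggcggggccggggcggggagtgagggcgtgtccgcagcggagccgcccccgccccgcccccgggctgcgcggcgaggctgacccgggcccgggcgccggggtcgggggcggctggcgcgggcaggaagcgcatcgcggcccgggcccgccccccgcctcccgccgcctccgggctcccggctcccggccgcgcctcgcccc
SEMA3C: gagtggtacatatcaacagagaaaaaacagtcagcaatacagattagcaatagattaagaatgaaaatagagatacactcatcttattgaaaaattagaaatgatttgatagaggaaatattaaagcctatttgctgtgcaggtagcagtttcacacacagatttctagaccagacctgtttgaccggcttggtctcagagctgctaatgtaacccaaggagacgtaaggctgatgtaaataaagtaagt
EPHA2: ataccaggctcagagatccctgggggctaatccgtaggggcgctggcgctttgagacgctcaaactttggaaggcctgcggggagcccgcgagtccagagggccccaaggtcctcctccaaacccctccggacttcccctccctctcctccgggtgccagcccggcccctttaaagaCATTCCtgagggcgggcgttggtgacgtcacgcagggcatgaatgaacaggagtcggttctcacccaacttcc

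The SEMA3C window was the least GC-rich of the 46 member promoters with an entry, at 36.4%, and that of PLXND1 the most, at 88.8%, around a median of 67.0% (64.8% over 11537 promoters of genes in the table). The 1 match in the windows shown is the CATTCC in EPHA2, the reverse complement of GGAATG, in the window that was added without a rule. Among the 13 members called higher with an entry, TGANTCA was found in 0, CAGACA in 1 and GGAATG in 1, where 4.09%, 9.94% and 9.46% of all promoters held them. EFNB3, NRP1, NTN1, SEMA3A, SEMA6A, SEMA6B and UNC5B had no entry. A match is a description of letters and not a binding site.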

How the data were processed

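L3.6pl cells were sorted by FACS on surface L1CAM and profiled by RNA-seq in 3 L1high and 3 L1low libraries. Stranded mRNA libraries were read from both ends, and the authors mapped the reads with BWA (GRCh38), assigned them to Ensembl 94 genes by featureCounts and deposited the raw counts, not normalized. The versions and the strand and multi-mapping options were not given in the sources used here. The processing notes also name DESeq2. Each of the 19469 genes exceeded 1 CPM in at least 2 libraries, so genes below that level are not among those tested. Symbols, lengths and coordinates came from GENCODE release 44 (GRCh38), which matched 19344 identifiers. BWA does not split reads across splice junctions, which can lower counts near short exons.

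The groups were tested with edgeR 4.0.16 under R 4.3.3 (TMM, filterByExpr, quasi-likelihood test, Benjamini-Hochberg adjustment over all genes), over the 5 libraries of the study's comparison and over all 6. Intervals are 95% from the standard error and the test's degrees of freedom. TPM used the length of the canonical transcript. The fit was tested on simulated data. Closest replicates (L1high 1 and 3) differed by a chi-square of 3.66 per degree of freedom, more than sampling noise. Named members are those called over 5 or 6 libraries, the highest per family per length, and those without overlap and an absolute log2 fold change of at least 0.5. From the lists, the rule takes the called genes with the largest rise and fall and called binding partners of members. Other genes, such as FYN, LIMK2, LUM and NEFL and the remaining uncalled members, were named after seeing their values. The members and lists were chosen with earlier results of these data known. Alternatives were DESeq2 1.42.0, RLE or library-size scaling, other filters, a replicate block and each library left out, and offsets for GC content and length were chosen after seeing the data. No amino acid sequences were used here.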

Additional observations from a re-analysis of the deposited data

How the results depend on the processing

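Under the alternatives, 422 of 477 values were labelled the same as in the 5-library fit. A fold change had to keep its direction and its side of the threshold, whether called or not. The median had to differ by less than the spread between libraries. A count only had to lie within a set ratio, so 2012 genes called with GC and length offsets passed as the same as 1473. The 422 also hold the values without a filter, which could not differ. When 1 library was left out, the genes called ran from 551 to 1649 (340 to 941 higher, 211 to 761 lower), and the guidance genes called from 7 to 18 (7 to 15 higher, 0 to 3 lower). The lowest counts came without L1low replicate 2, and without L1high replicate 1 they were 674 genes (425 higher, 249 lower) and 11 guidance genes. With GC and length offsets 998 genes were called lower. UNC5B reversed with those offsets (-0.0673) and without L1high replicate 2 (-0.11), and was called under none of the settings. With the replicate number as a block over all 6 libraries, 2363 genes (1143 lower) and 20 guidance genes were called, all 18 of the unblocked fit among them, and EFNA1 (-0.25, edgeR adjusted p = 0.045) and NEO1 (0.22, edgeR adjusted p = 0.047) passed. The effectors called with the block were 14, against 9 in the 5-library fit, and with GC and length offsets 5 proteases were called, against 3. Same-numbered libraries deviated together only weakly (correlations of 0.07, 0.09 and 0.21 across genes), so the number was not taken as a pairing, although each library correlated best with its own number, a hint from the data and not the design. DESeq2 called 16 guidance genes and gave no adjusted p for 13. With 1 library left out, the median log2 fold change of the members lay between 0.23 and 0.30, and that of L1CAM between -2.08 and -1.81. The filter removed no gene in the 5-library fit, so leaving it out tests nothing. Depth limits the scarce members, whose standard errors reached 0.42 against a median of 0.13.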

Other observations

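Proteases that cut guidance proteins were also read. All 13 of the list were in the table, and 3 were called (23.1%, where 7.57% of all genes were), all higher in L1low cells. MMP2 stood at 2.88, 2.82 and 2.19 CPM in L1high replicates 1, 2 and 3 and at 7.76, 8.52 and 8.75 CPM in L1low replicates 1, 2 and 3 (log2 fold change 1.56, standard error 0.17, edgeR adjusted p = 0.00015). The paper already reports higher MMP2 in L1low cells from the same RNA-seq, so the MMP2 call is not independent of that result. The other 2, PCSK5 and MMP14, had log2 fold changes of 0.51 and 0.50. ADAM10 and ADAM17, the main sheddases of ephrins, semaphorins and L1CAM, were not called, with log2 fold changes of -0.12 and 0.07.

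Genes on the opposite strand of called members gave values of their own, which could not be separated with certainty because the strand setting of the counting is not known. SEMA3F-AS1, opposite SEMA3F, stood at 13.2, 10.8 and 10.9 CPM in L1high replicates 1, 2 and 3 and at 15.1, 13.7 and 14.7 CPM in L1low replicates 1, 2 and 3 and was not called (0.28, edgeR adjusted p = 0.23). SEMA6A-AS1, opposite SEMA6A, was under 2 CPM in every library. ZYX, which overlaps the uncalled EPHA1 on the opposite strand and encodes the focal adhesion protein zyxin, rose (log2 fold change 0.57, standard error 0.10, edgeR adjusted p = 0.0036).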
